A study of Mus musculus with 20 samples.

Results

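Hematopoietic stem cells (HSCs) are isolated by a handful of surface proteins, and 10 genes that encode such proteins are described here: Kit, Ly6a, Slamf1, Cd48, Procr, Tek, Cd34, Esam, Cd27 and Eng. They were chosen by name as genes of the sorting gate and of receptors used to define HSCs, not by a measured value, but with earlier results of these data known. They are 10 of the 49671 gene IDs in the count tables. The study compared mouse HSCs that lack Kdm6b with HSCs that keep it. Kdm6b encodes a histone demethylase that removes methyl groups from H3K27. The Kdm6b-KO libraries came from mice labelled Vav-CRE:Kdm6bfl/fl, in which Cre from the Vav driver deletes a floxed Kdm6b across the blood system. The Control libraries came from mice labelled Vav-CRE:Kdm6b+/+, which carry the same Cre. All mice were C57BL/6 and 8 weeks old. Each RNA library was made from HSCs sorted out of marrow pooled from 3 male and 3 female mice, with 3 libraries per genotype, so differences between single animals are averaged within a library. The sort took lineage-negative cells with cKit, Sca1 and CD150 on their surface and without CD48. Open chromatin was mapped by ATAC-seq, in which a transposase inserts into accessible DNA, in 10000 sorted HSCs per library, with 3 libraries titled 6bKO and 3 titled Control. The genotype label of all 6 ATAC libraries reads wild-type, so the ATAC groups rest on the titles alone. The other 8 of the 20 samples were not analysed here.

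KIT is a receptor tyrosine kinase that binds stem cell factor and supports HSC survival and renewal, and Sca1, the product of Ly6a, is a small protein tethered to the membrane by a lipid anchor. CD150 (Slamf1) and CD48 belong to the SLAM family of adhesion receptors, and mouse HSCs carry the first and lack the second, which appears on their multipotent and committed progeny. EPCR (Procr), TIE2 (Tek), endoglin (Eng) and ESAM are shared by HSCs and endothelial cells, while CD34 and CD27 mark the passage from the most dormant HSCs to active HSCs and progenitors.

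Promoter sequences of 5 of the genes are shown because their ATAC signal spans the whole range found here, from a peak in every library to a peak in none. They run from 250 bases before to 50 bases after the annotated start on the + strand (RefSeq, GRCm38.p6, the assembly of mm10), and capitals mark matches on either strand to the ETS core AGGAAG, the GATA core AGATAA, the E-box CAGCTG and the GC box GGGCGG. Of the 10 genes, 8 matched the promoter table, with Ly6a and Esam not among them. No 2 of these motifs share bases with each other.
Kit promoter, chr5:75574737-75575036: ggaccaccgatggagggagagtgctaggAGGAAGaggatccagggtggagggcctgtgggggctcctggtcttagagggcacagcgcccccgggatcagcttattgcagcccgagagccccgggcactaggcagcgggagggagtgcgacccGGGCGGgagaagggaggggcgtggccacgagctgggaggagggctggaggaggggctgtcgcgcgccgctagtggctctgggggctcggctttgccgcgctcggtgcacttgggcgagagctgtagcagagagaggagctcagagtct
Cd34 promoter, chr1:194938571-194938870: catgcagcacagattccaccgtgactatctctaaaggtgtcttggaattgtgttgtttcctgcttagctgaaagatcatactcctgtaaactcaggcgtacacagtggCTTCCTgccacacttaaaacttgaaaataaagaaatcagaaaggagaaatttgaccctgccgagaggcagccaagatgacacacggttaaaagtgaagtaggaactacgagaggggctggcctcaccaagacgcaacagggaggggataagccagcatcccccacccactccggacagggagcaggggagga
Eng promoter, chr2:32646345-32646644: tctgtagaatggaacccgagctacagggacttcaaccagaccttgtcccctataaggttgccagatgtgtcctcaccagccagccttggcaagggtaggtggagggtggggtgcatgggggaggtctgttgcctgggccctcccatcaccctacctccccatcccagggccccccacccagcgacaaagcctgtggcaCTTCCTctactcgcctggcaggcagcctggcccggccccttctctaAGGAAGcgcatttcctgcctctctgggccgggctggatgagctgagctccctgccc
Tek promoter, chr4:94739039-94739338: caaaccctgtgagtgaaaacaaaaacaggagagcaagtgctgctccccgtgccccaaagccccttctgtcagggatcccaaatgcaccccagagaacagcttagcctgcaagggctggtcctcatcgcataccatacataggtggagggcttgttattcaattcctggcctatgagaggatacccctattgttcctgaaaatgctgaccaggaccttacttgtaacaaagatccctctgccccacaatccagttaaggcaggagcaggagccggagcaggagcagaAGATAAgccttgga
Slamf1 promoter, chr1:171766882-171767181: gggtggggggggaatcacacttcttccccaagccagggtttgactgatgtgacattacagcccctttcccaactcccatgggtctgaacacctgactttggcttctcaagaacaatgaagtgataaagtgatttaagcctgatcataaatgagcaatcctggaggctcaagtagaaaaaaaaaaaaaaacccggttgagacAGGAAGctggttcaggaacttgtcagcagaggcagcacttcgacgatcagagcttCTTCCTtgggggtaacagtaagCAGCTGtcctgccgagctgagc
The Kit promoter was the richest of the 8 in G and C, at 69% with 20 CpG dinucleotides, against a median of 52.7% and 7 over 27025 promoters. It held 1 ETS core and 1 GC box. The promoters of Cd34, with 1 ETS core, and of Eng and Slamf1, with 2 each, were at 50%, 63.3% and 49% GC. Slamf1 had an E-box as well, 29 bases after its start. Tek had no ETS core but a GATA core 37 bases after its start. Of the 8 promoters, 5 held AGGAAG, as did 35.1% of all promoters in the table, and 1 held AGATAA, as did 11.4%. CAGCTG was in 2 of the 8 and in 16.1% of all promoters, and GGGCGG in 1 of the 8 and 35.9% of all. Of 3 further motifs searched on both strands, the RUNX core TGTGGT matched in the Cd48 promoter (16.9% of all promoters), the AP-1 site TGANTCA in the Procr promoter (7.93%) and the TATA box TATAAA in none of the 8 (14.2%). A match describes the letters and no binding.

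ATAC peaks lay over the promoter windows of Kit and Cd34 in all 6 libraries. At Kit the authors' fold enrichment was 9.49, 12.1 and 7.41 in the libraries titled 6bKO and 6.65, 9.67 and 10.4 in the Control libraries, and the summits fell between -85 and 19 bases of the start. At Cd34 it was 8.04, 10.6 and 8.77 in the libraries titled 6bKO and 9.74, 7.34 and 9.33 in the Control libraries, with summits 37 to 144 bases after the start. Both sets of values overlapped between the groups. The Eng promoter had a peak in 2 libraries titled 6bKO and 3 Control libraries, that of Procr in 2 libraries of each title, and that of Cd48 in 1 library titled 6bKO and 2 Control libraries. Tek had one in 2 libraries titled 6bKO and no Control library. Slamf1 and Cd27 had none in any library. A peak in all 6 libraries was thus found over 2 of 8 promoters, while 36.2% of 17492 promoters of coding genes had one. Fold enrichment here is the authors' value for each peak and was not scaled between lists, so its overlap shows no likeness of the groups. A missing peak means only that none was listed.

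The counts assigned to genes numbered 10930930, 8683106 and 19336121 in the Kdm6b-KO libraries and 6793873, 8831086 and 13797890 in the Control libraries. Values are given as CPM, each gene's counts relative to the TMM-scaled size of its library. CPM is not divided by transcript length, so levels are compared between libraries. Where genes are ranked below, the rank is by CPM and may not hold for transcript numbers. A count of 3 corresponds to 0.148 to 0.327 CPM in Kdm6b-KO and 0.219 to 0.461 CPM in Control, counting error only, and all 10 genes were far above it. Kdm6b, the targeted gene, had 142.5, 202.1 and 191.3 CPM in Kdm6b-KO and 92.0, 282.5 and 220.6 CPM in Control (log2 fold change -0.15, SE 0.35, adjusted p = 0.882). Counts over the whole gene thus do not separate the genotypes, and the deleted exons could not be counted apart in these files. In bulk RNA of this kind, fewer cells of a type and less RNA per cell cannot be told apart.

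None of the 10 genes passed the threshold of an adjusted p of 0.05 in edgeR's quasi-likelihood test over 15185 genes, and none did in DESeq2 or limma-voom. Over all tested genes 0.461% passed it in edgeR, that is 70, with 37 higher and 33 lower in Kdm6b-KO. DESeq2 called 2.86% of the 15034 genes to which it gave an adjusted p, and limma-voom 0.277% of 15185. At an unadjusted p under 0.05 there were 2 of the 10, Eng and Procr, where 14.8% of all tested genes reached it. The groups did not overlap in 3 of the 10, where 20.5% of all tested genes had groups that did not overlap in either direction. The 3 were Eng, Procr and Esam, each higher in every Kdm6b-KO library than in any Control library. The log2 fold change, Kdm6b-KO over Control, was positive in 5 genes and negative in 5, with a median of 0.11 beside -0.001 for all tested genes.

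**Figure D1:**
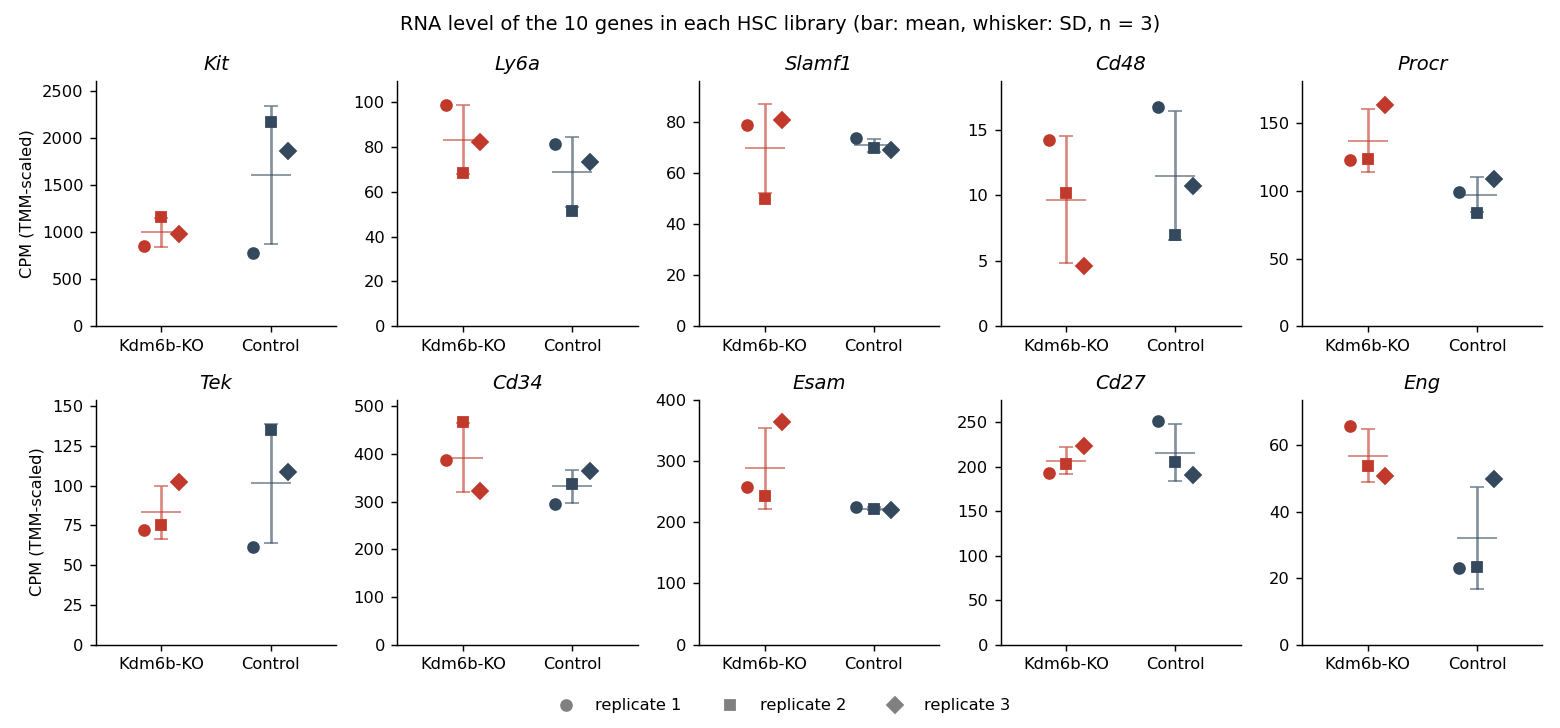
RNA level (y axis, CPM with TMM scaling, from 0) of each of the 10 genes in the 3 Kdm6b-KO libraries, in red, and the 3 Control libraries, in blue; symbols give the replicate number, bars the mean and whiskers the SD. Only Procr, Esam and Eng have groups that do not overlap, and Control replicate 1 stands at 781.1 CPM of Kit, below the other 2 Control libraries.

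Among the genes of the sorting gate, by whose proteins the cells of both genotypes were selected, Kit had the lowest log2 fold change. Kit (ENSMUSG00000005672, chr5:75574987-75656722) had 848.1, 1160 and 977.3 CPM in Kdm6b-KO and 781.1, 2169 and 1865 CPM in Control. The 3 Kdm6b-KO libraries lay close together, and the groups overlapped because Control replicate 1 was the lowest of all 6. The means were 995.0 ± 156.5 CPM in Kdm6b-KO and 1605 ± 729.6 CPM in Control (SD, n = 3 each). The log2 fold change was -0.69 (SE 0.32, 95% interval -1.39 to 0.01, adjusted p = 0.343). Without Control replicate 1 it was -1.02 with an adjusted p of 0.0257, the only one of 14 alternative settings in which Kit passed. Without Control replicate 2, the highest library, it was -0.41 with an adjusted p of 0.779, the largest of the 14. Control replicate 1 also had the fewest assigned counts and the lowest Kdm6b level of the 6.

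Ly6a (ENSMUSG00000075602, chr15:74994877-74998031), which encodes Sca1, had 99.0, 68.5 and 82.5 CPM in Kdm6b-KO and 81.4, 51.2 and 73.4 CPM in Control. The groups overlapped, with replicate 2 lowest in each. Its log2 fold change was 0.28 (SE 0.22, 95% interval -0.18 to 0.74, adjusted p = 0.578), and it was 0.11 without Control replicate 2, the lowest library. Ly6a belongs to a cluster of similar genes and overlaps the annotated gene Gm28068. Reads that fit Ly6a and another gene may have been left out or counted for the other gene.

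Slamf1 (ENSMUSG00000015316, chr1:171767131-171801184), whose product CD150 selects HSCs within the stem and progenitor gate, had 78.7, 49.7 and 80.8 CPM in Kdm6b-KO and 73.7, 69.6 and 69.0 CPM in Control. The Control libraries agreed closely, at 70.8 ± 2.55 CPM, and the Kdm6b-KO libraries spread around them, at 69.7 ± 17.4 CPM (SD, n = 3 each). The log2 fold change was -0.02 (SE 0.21, 95% interval -0.47 to 0.43, adjusted p = 0.979), and its sign changed in 4 of 14 alternative settings. Cd48 (ENSMUSG00000015355, chr1:171681245-171705258), whose product the gate leaves out, was still counted, at 14.2, 10.1 and 4.60 CPM in Kdm6b-KO and 16.7, 6.99 and 10.7 CPM in Control. It was the lowest of the 10 genes in counts, 55 to 163 per library, and the groups overlapped. Its log2 fold change was -0.26 (SE 0.42, 95% interval -1.16 to 0.65, adjusted p = 0.823). Cd48 was highest in replicate 1 of each genotype, the libraries with the highest summed level of granulocyte markers. The order differed in other libraries: Kdm6b-KO replicate 2 had 10.1 CPM of Cd48 beside a granulocyte sum of 196.8 CPM. Control replicate 2 had 6.99 CPM of Cd48 beside a sum of 1183 CPM. The part of granulocytes in the Cd48 level was not tested.

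Of the receptors shared with endothelial cells, Eng, Procr and Esam had the 3 highest log2 fold changes of the 10 genes, and Tek had a negative one. Eng (ENSMUSG00000026814, chr2:32646595-32682669) encodes endoglin, a co-receptor for ligands of the TGF-beta and BMP family. Eng had 65.8, 53.7 and 50.8 CPM in Kdm6b-KO and 23.0, 23.4 and 49.9 CPM in Control. The groups did not overlap, but Control replicate 3 stood close to Kdm6b-KO replicate 3 and apart from the other Control libraries. Mean levels were 56.8 ± 7.96 CPM in Kdm6b-KO and 32.1 ± 15.4 CPM in Control (SD, n = 3 each). The log2 fold change was 0.81 (SE 0.28, 95% interval 0.20 to 1.42), with an unadjusted p of 0.0134 and an adjusted p of 0.217 in edgeR. It passed in 2 of 14 alternative settings, without Control replicate 3, at 1.29 with an adjusted p of 0.0288, and with no filter on low counts, at 0.84 with an adjusted p of 0.0362. Over all 14 the log2 fold change ran from 0.62 to 1.29 and the adjusted p from 0.0288 to 0.619. Of all tested genes, 94.8% had a lower log2 fold change than Eng. Fpgs, Mir1954 and LOC115489602 overlap Eng in the annotation, so reads in the overlap may have been left out or counted for another gene.

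Procr (ENSMUSG00000027611, chr2:155751125-155755478) encodes EPCR, the receptor of activated protein C. Its level was 123.2, 123.9 and 164.0 CPM in Kdm6b-KO and 99.4, 83.4 and 108.9 CPM in Control. All 3 Kdm6b-KO libraries lay above the highest Control library. Procr had a log2 fold change of 0.50 (SE 0.20, 95% interval 0.08 to 0.91), with an unadjusted p of 0.0234 and an adjusted p of 0.265 in edgeR. The adjusted p stayed between 0.144 and 0.683 in the 14 alternative settings.

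Esam (ENSMUSG00000001946, chr9:37528089-37538319) encodes an adhesion molecule of endothelial junctions. Esam had 258.0, 243.3 and 364.4 CPM in Kdm6b-KO and 224.7, 222.5 and 220.8 CPM in Control. Kdm6b-KO libraries averaged 288.6 ± 66.0 CPM and the Control libraries, which lay close together, 222.7 ± 1.95 CPM (SD, n = 3 each), without overlap. The log2 fold change was 0.38 (SE 0.20, 95% interval -0.06 to 0.81, adjusted p = 0.409), and it was 0.17 without Kdm6b-KO replicate 3, the highest library. Tek (ENSMUSG00000006386, chr4:94739086-94874976) encodes TIE2, the receptor of angiopoietins. Tek had 71.9, 75.6 and 102.2 CPM in Kdm6b-KO and 61.3, 135.1 and 108.6 CPM in Control. The groups overlapped, again with Control replicate 1 as the lowest library. In edgeR, Tek had a log2 fold change of -0.29 (SE 0.26, 95% interval -0.85 to 0.28, adjusted p = 0.65). It was -0.54 without Control replicate 1 and -0.03 without Control replicate 2, the highest library, with an adjusted p of 0.14 to 0.99 over the 14 alternative settings.

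**Figure D2:**
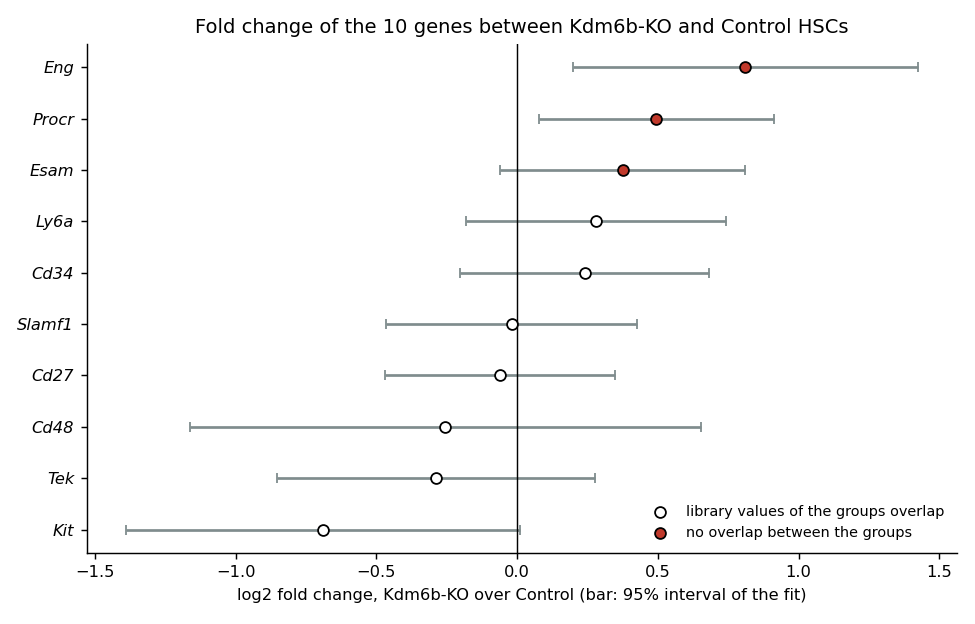
Log2 fold change of each gene (x axis, Kdm6b-KO over Control, 3 libraries each) with its 95% interval from the edgeR fit; filled points mark genes whose groups do not overlap. The intervals of Eng (0.20 to 1.42) and Procr (0.08 to 0.91) lie above 0, and those of the other 8 genes include it.

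Cd34 (ENSMUSG00000016494, chr1:194938821-194961292) encodes a sialomucin that in mice is absent or low on the most dormant HSCs. Its level was 388.1, 467.7 and 321.8 CPM in Kdm6b-KO and 296.0, 337.1 and 364.0 CPM in Control. The groups overlapped. In edgeR, Cd34 had a log2 fold change of 0.24 (SE 0.21, 95% interval -0.20 to 0.68, adjusted p = 0.63), and it was 0.10 without Kdm6b-KO replicate 2, the highest library. Cd34 overlaps the annotated gene Gm16897, so reads in the overlap may have been left out or counted for that gene. Cd27 (ENSMUSG00000030336, chr6:125232620-125237136) encodes a receptor of the TNF receptor family that binds CD70. Cd27 had 193.4, 203.2 and 223.7 CPM in Kdm6b-KO and 251.7, 205.3 and 190.5 CPM in Control. Here too the groups overlapped, and the log2 fold change was -0.06 (SE 0.19, 95% interval -0.47 to 0.35, adjusted p = 0.917). The intervals of Cd27 and Slamf1 reach down to -0.47 and that of Cd34 up to 0.68 on the log2 scale.

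**Figure D3:**
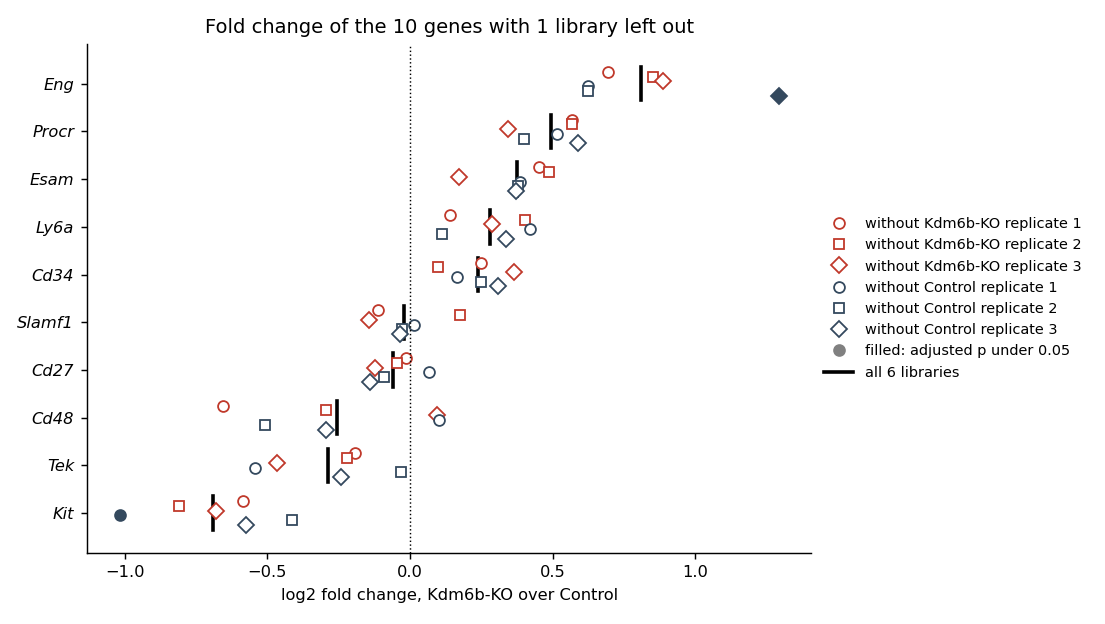
Log2 fold change of each gene (x axis, Kdm6b-KO over Control) with all 6 libraries, as a black line, and with each library left out in turn; filled symbols have an adjusted p under 0.05. Filled symbols occur for Eng without Control replicate 3 (1.29) and for Kit without Control replicate 1 (-1.02).

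The ligands, partners and relatives of the 10 proteins were read from lists of their pathways, and edgeR called no gene of any list. Counts in these lists stand beside 14.8% of all tested genes at an unadjusted p under 0.05 in edgeR. Groups that did not overlap, in either direction, were found in 20.5% of all tested genes. Of the relatives of the gate proteins, the SLAM list had 7 of 12 genes tested, with 1 positive and 6 negative log2 fold changes, a median of -0.03 and none at an unadjusted p under 0.05. Its most abundant members by CPM were Cd84, a SLAM receptor, and Slamf1. Cd84 had 171.6, 146.3 and 145.8 CPM in Kdm6b-KO and 180.9, 223.8 and 182.7 CPM in Control. Every Kdm6b-KO library was lower than every Control library, with a log2 fold change of -0.34 and an adjusted p of 0.412. The Ly6 list had 4 of 11 tested, with 3 positive and 1 negative, a median of 0.17 and none at an unadjusted p under 0.05. Ly6e, beside Ly6a on the chromosome, had 979.1, 833.1 and 1092 CPM in Kdm6b-KO and 1254, 897.6 and 990.7 CPM in Control. The groups overlapped (log2 fold change -0.11, adjusted p = 0.857). DESeq2 and limma-voom also called none in either list.

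Downstream of KIT, 14 of 15 listed genes were tested, with 11 positive and 3 negative log2 fold changes, a median of 0.21 and 5 at an unadjusted p under 0.05. Kitl, which encodes the ligand stem cell factor, was under the filter, at 0.70 to 1.24 CPM in Kdm6b-KO and 0.46 to 1.02 CPM in Control. The most abundant members were Ptpn6, which encodes the phosphatase SHP-1, and Pik3r1, which encodes a regulatory subunit of PI3-kinase. Their log2 fold changes were 0.10 (adjusted p = 0.88) and -0.08 (adjusted p = 0.88). DESeq2, which called 2.86% of all genes, called 1 member, Pik3cd, which encodes the PI3-kinase subunit p110δ and is named after its values were seen. Pik3cd had 118.8, 159.8 and 201.7 CPM in Kdm6b-KO and 77.3, 68.9 and 109.1 CPM in Control, without overlap. Its log2 fold change was 0.91 (SE 0.23) with an adjusted p of 0.114 in edgeR and 0.0228 in DESeq2, and 0.00322 to 0.409 over 14 alternative settings, of which it passed in 2. Limma-voom called none of this list.

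Around Tek, 4 of 5 listed genes were tested, 2 positive and 2 negative, with a median of 0.24 and 2 at an unadjusted p under 0.05. Angpt1, which encodes the activating ligand of TIE2, was the most abundant, at 809.0, 783.6 and 735.5 CPM in Kdm6b-KO and 967.9, 916.7 and 929.5 CPM in Control. The groups did not overlap (log2 fold change -0.27, adjusted p = 0.558). Dok2, an adaptor that TIE2 phosphorylates, had 202.7, 240.8 and 375.4 CPM in Kdm6b-KO and 78.0, 165.1 and 148.3 CPM in Control. All Kdm6b-KO libraries were higher, at a log2 fold change of 1.06 (SE 0.30) with an adjusted p of 0.15 in edgeR, 0.0207 in DESeq2 and 0.000229 to 0.471 over the alternatives. Tie1, which encodes the partner receptor of TIE2 and is named because DESeq2 called it, had 170.3, 192.7 and 200.8 CPM in Kdm6b-KO and 93.1, 105.6 and 137.1 CPM in Control. The groups did not overlap, and its log2 fold change was 0.75 (SE 0.20), with an adjusted p of 0.118 in edgeR, 0.0278 in DESeq2 and 0.0278 to 0.394 over the alternatives. Tek itself had overlapping groups, and limma-voom called none of the list.

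Of the receptors and SMADs that work with endoglin, 13 of 14 were tested, with 10 positive and 3 negative, a median of 0.24 and 1 at an unadjusted p under 0.05. That one was Tgfbr3, which encodes betaglycan, a co-receptor related to endoglin. Tgfbr3 had 50.0, 57.2 and 61.0 CPM in Kdm6b-KO and 223.8, 488.1 and 122.0 CPM in Control. Every Kdm6b-KO library was at most 61.0 CPM and every Control library at least 122.0 CPM. Its log2 fold change was -2.31 (SE 0.48), with an adjusted p of 0.118 in edgeR, 0.00696 in DESeq2 and 0.043 in limma-voom. It passed in 6 of the 14 alternative settings, with an adjusted p of 7.25e-16 to 0.376, and its log2 fold change was -1.62 without Control replicate 2, the highest library. The 2 co-receptors thus had log2 fold changes of opposite sign, 0.81 for Eng and -2.31 for Tgfbr3, and neither passed in edgeR. Smad5, a mediator of BMP signals, had a log2 fold change of 0.12 (adjusted p = 0.817).

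For CD27, 4 of 5 listed genes were tested, 2 positive and 2 negative, with a median of -0.03, and none was at an unadjusted p under 0.05 or called by DESeq2 or limma-voom. Cd70, the gene of its ligand, was at 0 to 0.327 CPM in Kdm6b-KO and 0 to 0.154 CPM in Control. The signalling genes Traf2 and Siva1 had log2 fold changes of -0.36 (adjusted p = 0.5) and -0.29 (adjusted p = 0.583). For EPCR, 5 of 7 genes of the protein C list were tested, 2 positive and 3 negative, with a median of -0.13 and 1 at an unadjusted p under 0.05. F2r, the gene of the thrombin receptor PAR1 through which EPCR signals, had a log2 fold change of 0.19 (adjusted p = 0.718). F2rl3, the gene of PAR4, had 51.7, 51.7 and 79.7 CPM in Kdm6b-KO and 25.3, 33.3 and 38.4 CPM in Control. The groups did not overlap, and its log2 fold change was 0.91 (SE 0.24), with an adjusted p of 0.114 in edgeR, 0.0297 in DESeq2 and 0.00853 to 0.437 over the alternatives. Limma-voom called none.

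Of the adhesion relatives of CD34 and ESAM, 8 of 9 were tested, 5 positive and 3 negative, with a median of 0.09 and 3 at an unadjusted p under 0.05. F11r, which encodes the junctional protein JAM-A, had a log2 fold change of -0.02 (adjusted p = 0.975). DESeq2 called Jam3 in this list, at 49.1, 38.9 and 57.5 CPM in Kdm6b-KO and 29.8, 23.8 and 28.6 CPM in Control, with a log2 fold change of 0.83 and an adjusted p of 0.0366. The adjusted p was 0.119 in edgeR and 0.0348 to 0.419 over the alternatives, and limma-voom called none.

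Markers of other cells were read beside these genes, with the same 14.8% of all tested genes at an unadjusted p under 0.05 in edgeR. Of the HSC markers that the gate did not use, all 10 were tested and none was called by the 3 tools, with a median log2 fold change of 0.08 and 1 at an unadjusted p under 0.05. Of 9 endothelial markers, 5 were tested, with 5 positive and 0 negative log2 fold changes, a median of 0.34 and 1 at an unadjusted p under 0.05. The summed level of the list was 386.0 to 547.8 CPM in Kdm6b-KO and 281.8 to 355.9 CPM in Control. The sums did not overlap, but this rested on Tie1: without it they were 242.8, 193.3 and 347.0 CPM in Kdm6b-KO and 188.8, 230.1 and 218.8 CPM in Control, and overlapped. Cdh5, the defining endothelial cadherin, was near 0, at 0.327 to 0.961 CPM in Kdm6b-KO and 0 to 0.585 CPM in Control, and Plvap, Flt1 and Ptprb were at most 2.36 CPM in any library. Pecam1, Emcn, Vwf and Kdr were higher, at 80.3 to 100.5, 49.8 to 63.0, 56.4 to 188.9 and 2.51 to 5.33 CPM in Kdm6b-KO. In Control these 4 were at 63.6 to 98.9, 46.6 to 55.3, 65.6 to 79.8 and 2.70 to 3.69 CPM, and their groups overlapped. Ptprb, not tested, was at 0.654 to 1.83 CPM in Kdm6b-KO and 0.219 to 0.635 CPM in Control. Within the list DESeq2 called Tie1, which HSCs also express. Granulocyte markers, of which 10 of 11 were tested, summed to 4260, 196.8 and 194.7 CPM in Kdm6b-KO and 3641, 1183 and 2088 CPM in Control, so replicate 1 of each genotype stood highest. Mast cell and basophil markers, of which 3 of 6 were tested, summed to 12.4, 7.41 and 5.34 CPM in Kdm6b-KO and 81.4, 29.9 and 14.8 CPM in Control. The sums did not overlap, and edgeR and limma-voom called none of the list, with 2 at an unadjusted p under 0.05, while DESeq2, with 2.86% of all genes called, called Cpa3, Ms4a2 and Prss34. Mast cells carry much KIT. Kit was lowest in the Control library with the highest mast cell sum. Between the groups, the mast cell sums and the mean Kit level, 995.0 CPM in Kdm6b-KO and 1605 CPM in Control, were both lower in Kdm6b-KO. The part of mast cells in the Kit level was not tested. T and NK cell markers, of which 2 of 7 were tested, summed to 23.5, 18.7 and 26.0 CPM in Kdm6b-KO and 12.1, 10.3 and 10.8 CPM in Control, without overlap. Both tested markers had an unadjusted p under 0.05, none was called by edgeR or limma-voom, and DESeq2 called Klrb1c, an NK cell receptor, while Cd3e, which defines T cells, was at 0 to 0.0874 CPM in Kdm6b-KO and 0 to 0.0731 CPM in Control. Multipotent progenitor markers, 5 of 6 tested, summed to 142.1 to 282.8 CPM in Kdm6b-KO and 212.2 to 229.0 CPM in Control, with a median log2 fold change of -0.48. Erythroid markers, 8 of 8 tested, summed to 50.9 to 240.9 CPM in Kdm6b-KO and 225.2 to 387.2 CPM in Control, with a median of -0.81. Both sums overlapped, each list had 2 genes at an unadjusted p under 0.05, and none of the 3 tools called any. The monocyte, megakaryocyte, B cell and stroma lists had 4 of 6, 4 of 6, 5 of 7 and 2 of 5 genes tested, none called by any of the tools, and medians of 0.34, 0.14, -0.11 and -1.68, with overlapping sums. At an unadjusted p under 0.05 they had 1 gene, in the megakaryocyte list. The part of any of these cells in the levels of the 10 genes was not tested.

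Beyond the promoters, the number of ATAC peaks in or within 50 kb of the 10 genes was 68, 77 and 106 in the libraries titled 6bKO and 64, 70 and 94 in the Control libraries. The means of 83.7 and 76.0 differed by 7.67, less than the spread within either group (two-sided exact permutation test, p = 0.6, where 3 against 3 libraries cannot give less than 0.1). The whole lists held 63682, 53692 and 69729 peaks in the libraries titled 6bKO and 47450, 44739 and 62125 in the Control libraries. Per 10000 listed peaks, the genes had 10.7, 14.3 and 15.2 in the libraries titled 6bKO and 13.5, 15.7 and 15.1 in the Control libraries. The sequencing depth behind the lists is unknown here.

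**Figure D4:**
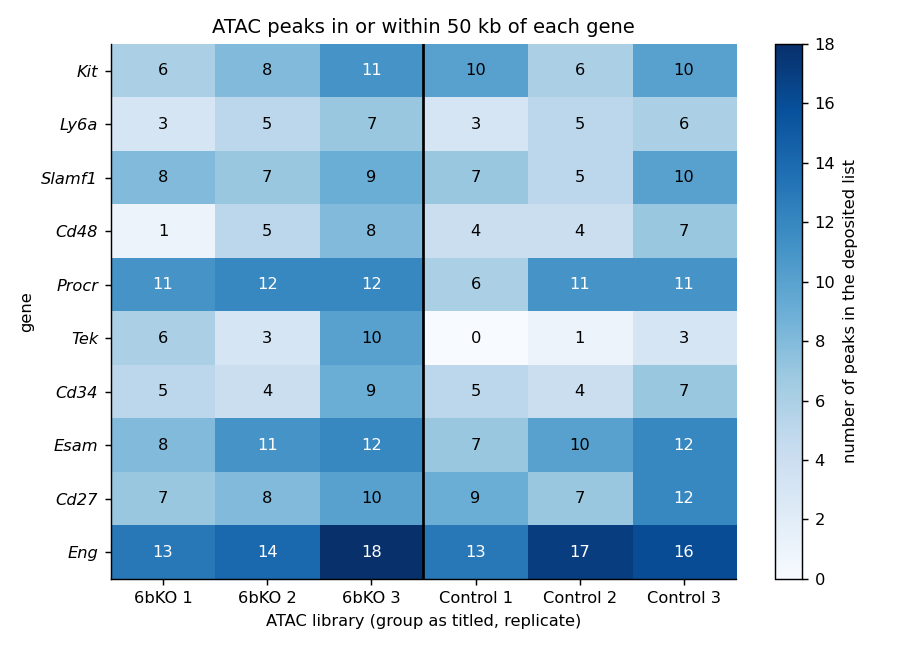
Number of deposited ATAC peaks in or within 50 kb of each gene (rows) in the 3 libraries titled 6bKO, on the left, and the 3 Control libraries, on the right. Eng has 13 to 18 peaks in every library, and Tek has 6, 3 and 10 in the libraries titled 6bKO and 0, 1 and 3 in the Control libraries.

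Around Eng there were 13, 14 and 18 peaks in the libraries titled 6bKO and 13, 17 and 16 in the Control libraries. Procr had 11, 12 and 12 in the libraries titled 6bKO and 6, 11 and 11 in the Control libraries. Tek had 6, 3 and 10 in the libraries titled 6bKO and 0, 1 and 3 in the Control libraries. Tek thus had the fewest in Control, and its groups met at 3. For Kit the numbers were 6, 8 and 11 in the libraries titled 6bKO and 10, 6 and 10 in the Control libraries, with overlap.

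When peaks of the 6 lists that overlap by at least 1 bp were merged, 164 regions lay in or within 50 kb of the 10 genes, of 149774 in all. A peak in all 6 libraries was found in 36 of them, or 21.95%, where the share over all regions was 13.0%. A peak in all 3 libraries titled 6bKO and in no Control library was found in 2, or 1.22%, where the share over all regions was 1.30%. The reverse was found in none, where the share over all regions was 0.288%. The share for 6bKO thus lay near that of all regions. Slamf1 and Cd48 lie side by side, so their windows overlap, but no region lay in the shared part.

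The 2 regions lay at chr4:94691119-94691389, at -48.0 kb from the Tek start, and at chr1:171840470-171840932, at 73.6 kb from the Slamf1 start and within Cd84. The Tek region had fold enrichments of 4.59, 8.25 and 8.04 in the libraries titled 6bKO, and the region in Cd84 had 7.87, 7.61 and 7.91. By fold enrichment, the peaks of the Tek region were at or above 14.8% to 63.8% of all peaks in the whole list of their library. Those of the region in Cd84 were at or above 54.0% to 69.1%. A region at the Tek start, chr4:94739226-94739675, had a peak in all 3 libraries titled 6bKO, at 4.42, 6.81 and 5.54, and in Control replicate 3, at 4.20.

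Open regions shared by all 6 libraries also lay outside the promoters. The first regions given here, at Eng and Ly6a, had higher fold enrichments than the Kit and Cd34 promoter peaks in every list. The others were not all stronger: the Cd34 region below had 3.94 in Control replicate 1, where the Cd34 promoter had 9.74. At Eng, chr2:32637690-32638396, at -8.6 kb from the start, had fold enrichments of 17.5, 18.7 and 23.4 in the libraries titled 6bKO and 10.4, 12.4 and 14.3 in the Control libraries. At Ly6a, chr15:74988357-74989577 had 19.8, 16.5 and 21.9 in the libraries titled 6bKO and 9.80, 11.2 and 15.1 in the Control libraries. In every list, 87.7% or more of all peaks had a fold enrichment at or below theirs. At Slamf1, which had no promoter peak, chr1:171761845-171762486, at -5.0 kb, had 15.4, 16.1 and 17.0 in the libraries titled 6bKO and 7.68, 7.28 and 8.17 in the Control libraries. Fold enrichment moves with depth and was not scaled between lists, so these values describe each list and no difference between the groups. Near Procr, chr2:155742181-155743654, at -8.3 kb, and near Cd34, chr1:194927854-194928341, at -10.7 kb, had a peak in all 6 libraries as well. Inside Esam, chr9:37530095-37530676 did, and at Cd27, whose promoter had none, so did chr6:125241530-125241897, at -4.7 kb. Eng had 8 regions with a peak in all 6 libraries, Esam 6, Procr 5, Slamf1 and Cd27 4 each, Kit, Ly6a and Cd34 3 each, and Tek and Cd48 none. Windows of 50 kb also cover other coding genes, 7 around Eng and none around Kit or Cd34, so a region is placed near a gene and not assigned to it.

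**Figure D5:**
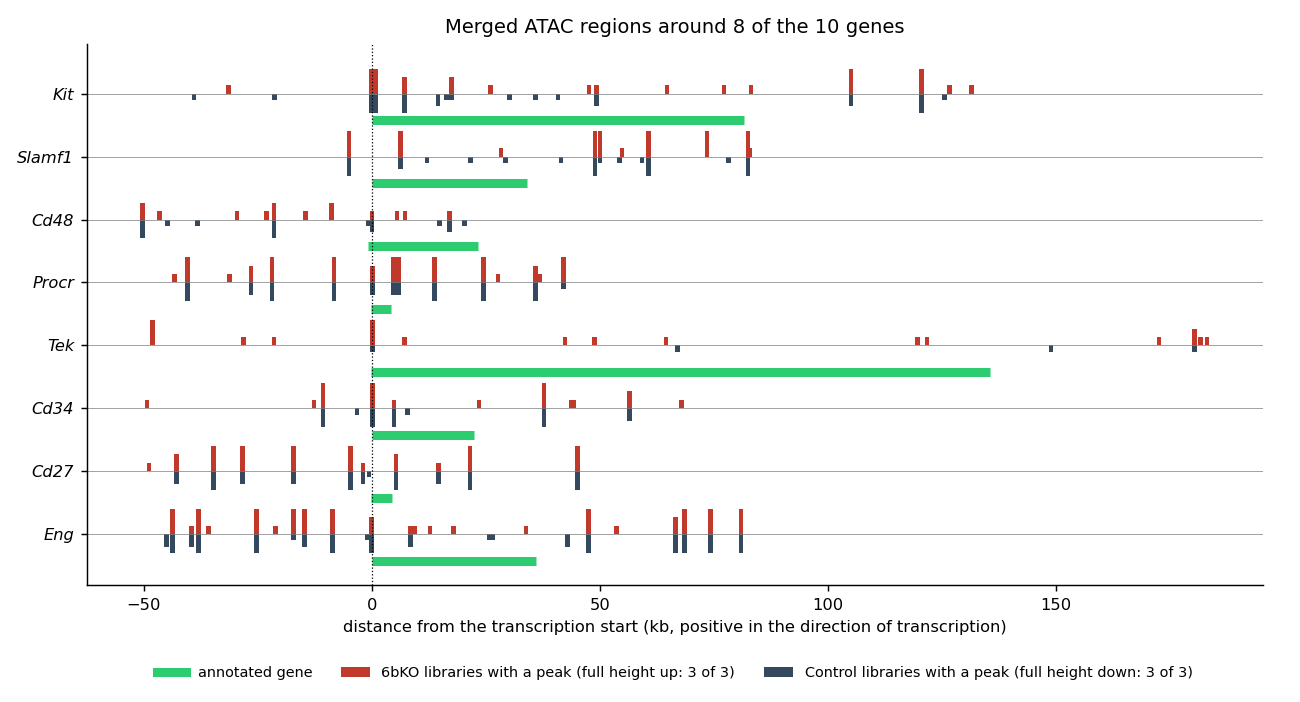
Merged ATAC regions around the 8 genes with a known start, by distance from the start (x axis, kb, positive in the direction of transcription); red bars above each line show how many libraries titled 6bKO had a peak, blue bars below it how many Control libraries, and green bars the annotated gene. Kit and Cd34 have full bars on both sides at the start, Slamf1 has its nearest shared region at -5.0 kb, and Tek has 1 region at -48.0 kb with a peak in all 3 libraries titled 6bKO and no Control library.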

How the data were processed

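RNA was analysed in 6 libraries and ATAC in 6. The deposited RNA files hold raw counts per Ensembl gene, which the authors made, per the submitters' processing notes, with STAR 2.0.4, featureCounts 1.4.5, HTSeq 0.8.0 and Partek 6.6 on mm10. Neither the strand setting nor the annotation release is given in the sources used here. Of all reads in a file, 16.5% to 19.7% were assigned to genes, and rows of unassigned reads (no feature in 30.4% to 40.8% of reads, no unique alignment in 37.6% to 46.8%) were left out. The deposited ATAC lists, 1 per library, hold each peak's fold enrichment, its −log10 p and −log10 q, a score that was not used, and its summit. They were made with cutadapt 1.16, BWA 0.7.16a and MACS2, per the submitters' processing notes.

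The count test was edgeR 4.0.16, run under R 4.3.3 (low genes removed by filterByExpr, TMM scaling, robust quasi-likelihood fit on genotype alone, two-sided, Benjamini-Hochberg over 15185 genes, threshold 0.05), with DESeq2 1.42.0 and limma-voom 3.58.1 as alternatives. The fit was tested on simulated data. No 2 libraries of the same genotype agreed within counting noise. Replicates are labelled as biological, from separate pools. The replicate numbers did not pair the libraries. ATAC peaks were merged at 1 bp of overlap and linked to genes within 50 kb of the annotated span, and starts came from RefSeq (GRCm38.p6). The members and gene lists were chosen with earlier results of these data known. From each pathway list, the genes named are called genes or, with none called, the 2 with the highest mean CPM. Pik3cd, Tie1, Jam3, Kitl, Cd70, Cdh5, Plvap, Flt1, Ptprb, Pecam1, Emcn, Vwf, Kdr, Cpa3, Ms4a2, Prss34, Klrb1c and Cd3e were named outside this rule, after their values were seen. Some genes that this rule names are not reported here.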

Additional observations from a re-analysis of the deposited data

How the results depend on the processing

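The count of called genes among the 10 was 0 in edgeR and also with DESeq2 size factors, library totals, at least 1 CPM in 3 libraries, no robust fit, DESeq2 and limma-voom. It was 1 with no filter on low counts (Eng) and 0 to 1 with 1 library left out (Kit without Control replicate 1, Eng without Control replicate 3). Over all genes the 70 calls became 576 with no filter, 430 in DESeq2, 42 in limma-voom and 20 to 519 with 1 library left out, with the high end without Control replicate 1 and the low end without Kdm6b-KO replicate 3, and with 24 (Kdm6b-KO replicate 2 out), 46 (Control replicate 2 out) and 161 (Control replicate 3 out) between them. With library totals there were 70 higher and 30 lower calls, in place of 37 and 33, and the median of all genes moved to 0.15. Under a replicate block there were 88 calls and 0 among the 10. Deviations of same-numbered libraries correlated at 0.032, 0.161 and -0.127. No paired analysis was possible for the ATAC counts, whose numbers only name libraries. The sign turned for Slamf1 with library totals (0.13) and no filter (0.019), and ran from -0.14 to 0.18 with 1 library left out; for Cd27 with library totals (0.088), and from -0.141 to 0.066; and for Cd48 from -0.65 to 0.10. Against the shifted median, Slamf1 and Cd27 stayed below it with library totals. The ATAC peak difference of 7.67 became -1.67 within 10 kb and -1.67 within 1 kb, and ran from -3.5 to 16.67 with 1 library left out, -3.5 without 6bKO replicate 3. The 2 regions with a peak in 1 group became 0 within 10 kb, 0 within 1 kb, 1 at a −log10 q of at least 5, and 2 to 7 with 1 library left out, where fewer lists must match. The cause of the other changes was not tested.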
